A study of Homo sapiens with 6 samples.

Results

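The 40 genes described here encode the proteins that mark the centromere, build the kinetochore on it and run the spindle checkpoint. They were taken by name from a fixed list, and all 40 were found among the 14034 rows of the count table. The cells were JHH-4, an established human hepatocellular carcinoma line labelled as epithelial-like. In the 3 miR-885-5p libraries the microRNA was overexpressed from a plasmid carrying its primary transcript, and the 3 control libraries came from JHH-4 cells labelled wild type. The labels do not say whether control cells were given an empty plasmid, so what the plasmid did and what the microRNA did cannot be told apart. Per the design text the replicates are technical, so the p-values measure only the spread between such libraries of 1 line.

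The kinetochore is the protein plate that ties a chromosome to spindle microtubules. CENP-A, a histone H3 variant, marks the centromere and is loaded by HJURP and the Mis18 proteins. The constitutive centromere-associated network (the CENP-C, CENP-T, CENP-L/N, CENP-H/I/K/M and CENP-O/P/Q/U groups) sits on it, and the KMN network (KNL1, the Mis12 complex and the Ndc80 complex) binds microtubules. The spindle checkpoint kinases and MAD and BUB proteins delay anaphase until every kinetochore is attached, and shugoshins keep sister centromeres together until then. Many of these genes are transcribed mostly in G2 and mitosis and are held down in resting cells by the DREAM complex, which reads the promoter element called CHR (cell cycle genes homology region) through LIN54.

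The mature microRNA is encoded on the minus strand of chromosome 3, at chr3:10394531-10394552 (GRCh38.p14, sequences from RefSeq), and is shown with its seed, bases 2 to 8, in capitals because the seed sets which messengers it can pair with.
miR-885-5p: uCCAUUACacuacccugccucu
The longest annotated 3′ UTR (GENCODE 29) of each of the 40 genes was searched for the letters that pair with this seed. None of the 40 held the 7mer-m8 GTAATGG, and so none held the 8mer GTAATGGA, against 8.01% and 2.53% of 12308 genes with a 3′ UTR. Searching every annotated 3′ UTR of a gene in place of the longest also found 0 of 40. The 3′ UTRs of the 40 genes had a median of 830.5 bases, against 1389.5 bases over all genes, so they offer less sequence to search. Weaker matches were present. The 6mer TAATGG occurred in 8 of the 40 UTRs (20.0%, against 30.4% of all genes), and 6 of these 8, those of CENPK, CENPL, ZWILCH, BUB3, MAD2L1 and SKA1, held the 7mer-A1 TAATGGA (15.0%, against 13.1%). Of these 6 genes, CENPK, SKA1, MAD2L1 and ZWILCH passed the test as lower and CENPL and BUB3 did not, as given under each role. For comparison, 75.0% of the 40 genes and 26.5% of all genes tested were called lower. A 7mer-A1 site of each is shown with the position of its match (GENCODE 29, GRCh38) and the matching letters in capitals, and MAD2L1 holds a second one.
CENPK, 7mer-A1 at chr5:65517936-65517942, minus strand: aatatgaaaaacTAATGGAtaaagctagca
SKA1, 7mer-A1 at chr18:50393107-50393113, plus strand: gtactaggcacaTAATGGAactaaaaaatg
MAD2L1, 7mer-A1 at chr4:120059278-120059284, minus strand: gtgtcttcaatcTAATGGAtaaactttgat
ZWILCH, 7mer-A1 at chr15:66549270-66549276, plus strand: tttattttagttTAATGGAatatacattct
CENPL, 7mer-A1 at chr1:173799795-173799801, minus strand: atgagatgtatcTAATGGAtatttctgatt
BUB3, 7mer-A1 at chr10:123163962-123163968, plus strand: acaacctgaaaaTAATGGAaaagaggtttt
These are matches of letters and were not shown here to be bound.

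Promoters were looked at because many of the genes moved together. RefSeq promoters were found for 33 of the 40 genes; CENPH, CENPL, CENPM, KNL1, BUB3, TTK and MIS18A had none in the table. Each is 300 bases long and ends 50 bases after the gene's start. The CHR letters TTTGAA or TTCGAA, searched on both strands, were present in 18 of 33 promoters (54.5%, 95% exact binomial interval 36.4 to 71.9%), against 19.5% of 27305 genes with a promoter and 15.9% of the 9882 among them whose names are in the count table. Within the narrower window from 100 bases before the start to 50 after, they were in 17 of 33 (51.5%), against 9.09% of all and 6.97% of the genes in the table. The letters nearest the start lay within 25 bases of it in 13 of the 18 genes. They were scored as on the strand of the gene in 14 of the 18, a count that includes OIP5, CENPW, SGO1 and BUB1. The letters of those genes are TTCGAA, which reads the same on both strands and so has no direction. CCAAT, the box bound by NF-Y, was in 21 of 33 promoters (63.6%, against 39.7% of all and 43.9% of the genes in the table). The E2F letters TTTCCCGC, TTTCGCGC, TTTGGCGC and TTTCCCGG, searched likewise, were in 4 of 33 (12.1%, against 5.03% of all and 8.64% of the genes in the table). Windows around the CHR letters, in capitals and written so that they read TTTGAA or TTCGAA, are shown for 8 genes with the largest falls among those that hold them, and for CENPF, which holds them and did not pass the test.
ZWINT, chr10:56361273-56361302, plus strand: ccctaagattacTTTGAAgtcacagtcgac
SKA1, chr18:50375068-50375095, plus strand: cgcggcgggcggTTTGAAttttgcttac
SKA3, chr13:21176538-21176567, plus strand: tcccgccactagTTTGAAtctcggcgccgg
CENPO, chr2:24793449-24793474, plus strand: ggttggtttggtTTTGAAgacgtgga
SPC25, chr2:168890416-168890445, minus strand: aagtgcactaggTTTGAAatcggaaagttg
HJURP, chr2:233854629-233854658, minus strand: gacgcaaatttgTTTGAAaggcccaatcag
MAD2L1, chr4:120066807-120066836, minus strand: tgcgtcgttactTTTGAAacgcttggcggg
OIP5, chr15:41332573-41332602, minus strand: gcctggcgtgtaTTCGAAaggaaggcgccg
CENPF, chr1:214603223-214603244, plus strand: ggctgcgggcagTTTGAAttag
Of the 18 genes with CHR letters 16 were lower with miR-885-5p and 2, CENPF and CENPW, did not pass the test, with a median log2 fold change of -0.42 (26.5% of all genes tested were called lower). Of the 15 with a promoter and no such letters 10 were lower and 5 did not pass, with a median of -0.45. The medians thus lay close together. SPC24, CENPK and SKA2, whose values are given under their roles, hold no CHR letters and have 3, 3 and 5 CCAAT boxes.

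**Figure D1:**
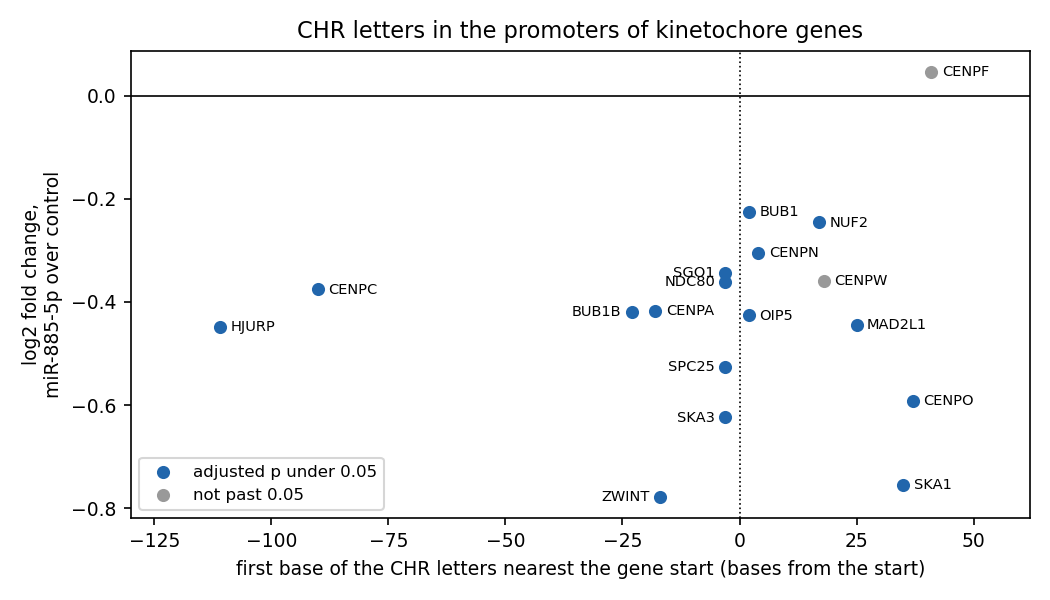
Log2 fold change of the 18 genes with CHR letters in their promoter (y axis, miR-885-5p over control) against the distance in bases of the letters nearest the gene start (x axis, negative is upstream). Blue points passed an adjusted p of 0.05 and grey points did not; 13 genes lie within 25 bases of the start, and genes at like distances, such as ZWINT and CENPA, differ in size of change.

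Whole promoters are printed for the 2 genes with the largest falls that hold CHR letters and for MIS12, the gene with the most positive value, with CHR, CCAAT and E2F letters in capitals on either strand. ZWINT and MIS12 have more than 1 RefSeq start, and the one with the lower coordinates is shown.
ZWINT promoter, chr10:56361210-56361509, minus strand: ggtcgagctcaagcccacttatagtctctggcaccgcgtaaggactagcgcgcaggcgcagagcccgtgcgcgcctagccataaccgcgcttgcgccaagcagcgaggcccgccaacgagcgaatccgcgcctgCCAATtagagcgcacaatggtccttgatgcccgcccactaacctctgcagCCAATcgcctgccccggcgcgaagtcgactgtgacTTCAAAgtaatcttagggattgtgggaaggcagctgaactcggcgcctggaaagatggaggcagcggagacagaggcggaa
SKA1 promoter, chr18:50374796-50375095, plus strand: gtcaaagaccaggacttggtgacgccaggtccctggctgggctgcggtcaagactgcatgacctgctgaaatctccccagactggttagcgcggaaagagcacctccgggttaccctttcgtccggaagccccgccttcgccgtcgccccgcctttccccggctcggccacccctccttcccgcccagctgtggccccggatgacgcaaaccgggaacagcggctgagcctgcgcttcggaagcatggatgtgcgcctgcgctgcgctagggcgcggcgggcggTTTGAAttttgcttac
MIS12 promoter, chr17:5486124-5486423, plus strand: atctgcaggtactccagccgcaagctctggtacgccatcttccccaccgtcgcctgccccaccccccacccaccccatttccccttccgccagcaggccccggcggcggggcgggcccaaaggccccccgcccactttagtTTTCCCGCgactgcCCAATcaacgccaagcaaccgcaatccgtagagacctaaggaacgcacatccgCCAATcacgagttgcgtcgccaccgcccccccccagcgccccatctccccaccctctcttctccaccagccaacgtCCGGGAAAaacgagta
In the ZWINT promoter the CHR letters run against the gene and so read TTCAAA, with 2 CCAAT boxes upstream. The SKA1 promoter has the CHR letters alone, 35 bases past the start. The MIS12 promoter has no CHR letters, 2 CCAAT boxes and 2 E2F matches.

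Total counts per library ran from 46382314 to 56409821 with miR-885-5p and from 48327113 to 49694754 in control. The 40 genes had 383 to 19799 counts in a library, so none was near the limit of detection. Control library 3 stood apart from the others on the second principal component (12% of the variance; the first, 66.0%, separated the groups). The keratin genes KRT8, KRT18 and KRT19 were abundant in every library, and the 5 epithelial markers analysed summed to 2869 to 2972 CPM with miR-885-5p and 3465 to 3547 CPM in control. Of these CLDN1 fell by 1.31 and CLDN4 rose by 2.05 on the log2 scale (adjusted p = 4.48e-07 and 2.23e-06 in edgeR). Of 9 hepatocyte markers FGB fell by 2.2 (adjusted p = 6.00e-07) and SERPINA1 had a value of -0.08 (adjusted p = 0.636). CDH1 and EPCAM, and the hepatocyte markers ALB, APOA1, APOB, TTR, HNF4A, AFP and TF, were not analysed here. Of 5 leukocyte markers only CD14 was analysed, at 0.615 to 1.11 CPM with miR-885-5p and 1.05 to 1.59 CPM in control. Of 5 fibroblast markers COL1A1 and PDGFRB summed to 23.5 to 23.9 CPM with miR-885-5p and 12.7 to 15.2 CPM in control, and of 4 endothelial markers PECAM1 and KDR to 2.5 to 2.78 CPM and 1.42 to 2.08 CPM. The part of these markers in the results was not tested. Levels are CPM, counts scaled to a common library size with TMM factors. A log2 fold change sets miR-885-5p over control and carries its standard error (SE). Called lower means adjusted p under 0.05 in edgeR's quasi-likelihood test over all 14034 genes.

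With miR-885-5p, 30 of the 40 genes fell (75.0%), none rose and 10 did not pass the threshold; among all genes tested 26.5% were called lower and 26.3% higher. In RNA from whole cultures, fewer cells in G2 or mitosis and less of a messenger in each cell cannot be told apart. At an unadjusted p under 0.05, 31 of the 40 were lower and 0 higher in edgeR, and DESeq2 and limma-voom also called 0 higher. The share of all genes at this looser threshold was not computed for edgeR. In the authors' deposited values 28.8% of all genes were lower and 28.8% higher at p under 0.05. The median log2 fold change of the 40 was -0.39, against -0.00 over all genes, and the values ran from -0.95 for SPC24 to 0.17 for MIS12. The SPC24 value is -0.64 without miR-885-5p library 3 and -0.47 from FPKM, and CENPM is next at -0.91. Among called genes NSL1 fell least (-0.16), and a test against a 1.5-fold change called only CENPM, CENPK, ZWINT, SKA2 and SKA1 (2.92% of all genes were called lower by it and 3.51% higher, with none of the 40 higher). In 33 of the 40 genes every miR-885-5p library was below every control library, which held for 30.3% of all genes; the reverse held for none of the 40 and for 30.2% of all genes. From FPKM, the authors' length-scaled unit, limma called 26 of the 40 lower (19.1% of all genes) and 0 higher (27.0%). Summed over the 40 genes the level was 1933, 1923 and 1944 CPM in the miR-885-5p libraries, against 2416, 2436 and 2409 CPM in control. By library, the median gene stood at -0.39, -0.36 and -0.37 relative to its control mean (log2) with miR-885-5p, against -0.02, 0.00 and 0.00 in control. The authors' deposited table gave p under 0.05 and a lower level for 31 of the 40 genes (28.8% of all genes), and its sign was that of the fit used here for all 40. For CENPA and CENPK it gave -0.417 and -0.797, the values of DESeq2 on the counts here. The match in sign is therefore not separate evidence.

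**Figure D2:**
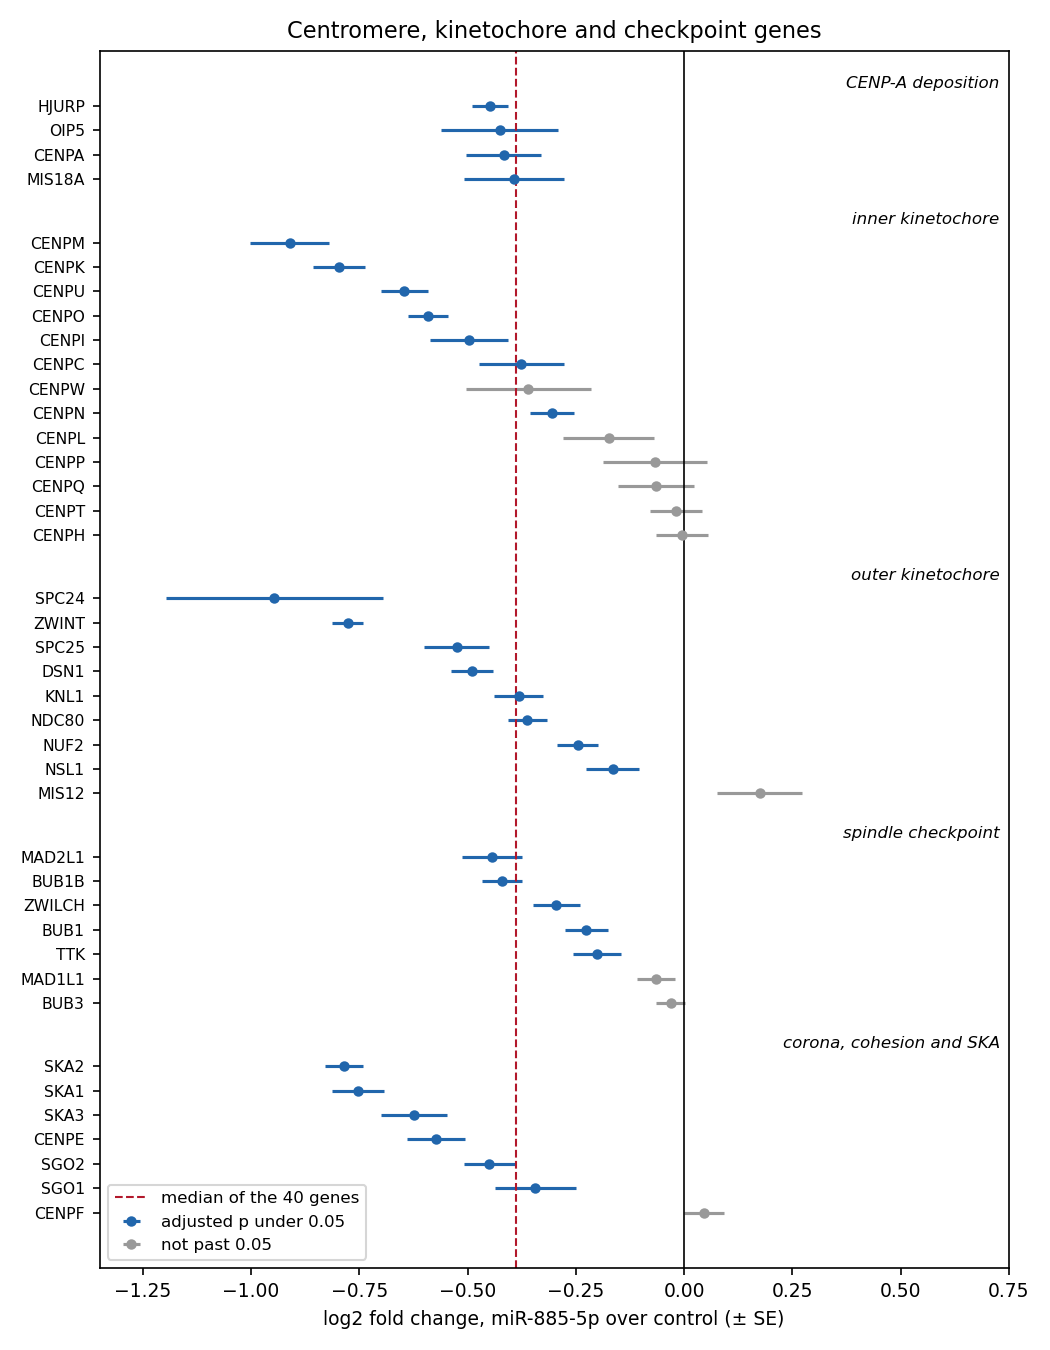
Log2 fold change (x axis, miR-885-5p over control) of each of the 40 genes by role, with bars of ± 1 SE from the edgeR fit on 3 libraries per group. Blue genes passed an adjusted p of 0.05 and grey ones did not; 38 of 40 points lie left of 0 and the dashed line marks their median of -0.39.

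For each count by role given from here on, the share of all genes tested that were called lower is 26.5%. The 4 genes of CENP-A deposition all fell, and by nearly the same amount, 0.39 to 0.45 on the log2 scale. HJURP, the chaperone that carries CENP-A to the centromere, had 89.7, 88.2 and 89.9 CPM with miR-885-5p, against 125, 125 and 116 CPM in control (log2 fold change -0.45, SE 0.04, adjusted p = 1.75e-05). The groups did not overlap. The CHR letters of HJURP lie farther from the start than those nearest the start in the other genes shown. OIP5, which encodes the Mis18-beta subunit, had 9.84, 10.8 and 7.32 CPM with miR-885-5p, against 12, 12 and 13.6 CPM in control (log2 fold change -0.43, SE 0.14, adjusted p = 0.0237). The third miR-885-5p library was the lowest, and without it or without control library 3 OIP5 lost its call (log2 fold change -0.28 and -0.36, adjusted p = 0.0577 and 0.0547). Exons of OIP5 overlap those of OIP5-AS1 on the opposite strand, and no source used here states whether counting kept strand. CENPA itself averaged 15.4 ± 0.735 CPM with miR-885-5p and 20.6 ± 2.12 CPM in control (SD, n = 3 each; log2 fold change -0.42, SE 0.09, adjusted p = 0.00252). MIS18A, the partner of OIP5, had 10.5, 10.9 and 11.2 CPM with miR-885-5p, against 13.8, 12.1 and 16.8 CPM in control (log2 fold change -0.39, SE 0.12, adjusted p = 0.0164), and lost its call without miR-885-5p library 1 (adjusted p = 0.0611). Without control library 3 its log2 fold change was -0.26. The ranges of the CENPA to HJURP ratio and of the OIP5 to MIS18A ratio overlapped between the groups (differences in log2 ratio of 0.04 and -0.06, exact permutation p = 0.8 each, two-sided).

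In the inner kinetochore 7 of its 13 genes fell and 6 did not pass the threshold. CENPM fell most, with 29.5, 29.2 and 26.7 CPM in miR-885-5p libraries, against 51.1, 47.7 and 61.8 CPM in control (log2 fold change -0.91, SE 0.09, adjusted p = 2.88e-05). Control library 3 was the highest, and without it the log2 fold change was -0.79. CENPK had 22.4, 24.4 and 24.4 CPM with miR-885-5p, against 43.3, 41.1 and 39.5 CPM in control (log2 fold change -0.80, SE 0.06, adjusted p = 4.93e-06), and its 7mer-A1 match is shown above. CENPM and CENPK belong with CENPI and CENPH to 1 subcomplex, and CENPI fell by 0.50 (SE 0.09). CENPH, the fourth subunit, had 41.8, 40.8 and 40.5 CPM with miR-885-5p and 43.9, 38.1 and 41.6 CPM in control (log2 fold change -0.00, SE 0.06, adjusted p = 0.955). The log2 ratio of CENPH to CENPK was 0.79 ± 0.09 with miR-885-5p and -0.01 ± 0.10 in control (SD, n = 3 each). This difference of 0.80 was the largest of the 18 subunit pairs compared and the ranges did not overlap, but the exact permutation p cannot go below 0.10 with 3 against 3, and was 0.1 (0.2 adjusted over 18 pairs).

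The CENP-O/P/Q/U group also held genes that fell and genes that did not pass the test. CENPU fell by 0.65 (SE 0.05) and CENPO by 0.59 (SE 0.05). CENPP had 11.6, 9.04 and 8.95 CPM with miR-885-5p, against 9.60, 11.3 and 10.1 CPM in control (log2 fold change -0.07, SE 0.12, adjusted p = 0.664). CENPQ had 16.9, 14.8 and 15.3 CPM with miR-885-5p, against 15.6, 15.4 and 18.1 CPM in control (log2 fold change -0.06, SE 0.09, adjusted p = 0.557). The ranges of both genes overlap between the groups. With 1 library left out CENPP lay between -0.20 (without miR-885-5p library 1) and 0.00, and CENPQ between -0.12 and 0.01 (without control library 3). The CENPO to CENPP log2 ratio was lower by 0.52 and that of CENPU to CENPQ by 0.59 with miR-885-5p (exact permutation p = 0.1 each, 0.2 adjusted over 18 pairs). Exons of CENPP overlap IPPK and NOL8 on the opposite strand, and those of CENPO overlap ADCY3 and PTRHD1, so some of their counts may be shared with those genes.

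CENPC, the scaffold that binds the CENP-A nucleosome directly, fell by 0.38 (SE 0.10, adjusted p = 0.00919). From FPKM its value was -0.19 (limma, adjusted p = 0.0821), with 1 added before taking log2, which draws values at low FPKM toward 0. Its mean FPKM was 1.29 with miR-885-5p and 1.61 in control. CENPN, which also reads the CENP-A nucleosome, fell by 0.30 (SE 0.05). CENPL, the partner of CENPN, had 11.1, 10.5 and 9.50 CPM with miR-885-5p, against 10.8, 11 and 13.3 CPM in control (log2 fold change -0.17, SE 0.10, adjusted p = 0.190). CENPT, a second anchor for the outer kinetochore, had 33.6, 32.8 and 31.5 CPM with miR-885-5p, against 31.0, 33.1 and 35 CPM in control (log2 fold change -0.02, SE 0.06, adjusted p = 0.816). Both of these overlapped between the groups. Without control library 3 CENPL stood at -0.07, and from FPKM CENPT had a value of 0.18 (limma, adjusted p = 0.149). CENPW, the histone-fold partner of CENP-T, had 10.8, 10.8 and 10.7 CPM with miR-885-5p, against 13.4, 10.8 and 17.2 CPM in control (log2 fold change -0.36, SE 0.14, adjusted p = 0.0587). Its miR-885-5p libraries were almost identical while the controls spread widely, and the lowest control library nearly reached them. It passed the threshold in DESeq2 (adjusted p = 0.0217) and without control library 2 (adjusted p = 0.00344); without control library 3 its log2 fold change was -0.17.

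**Figure D3:**
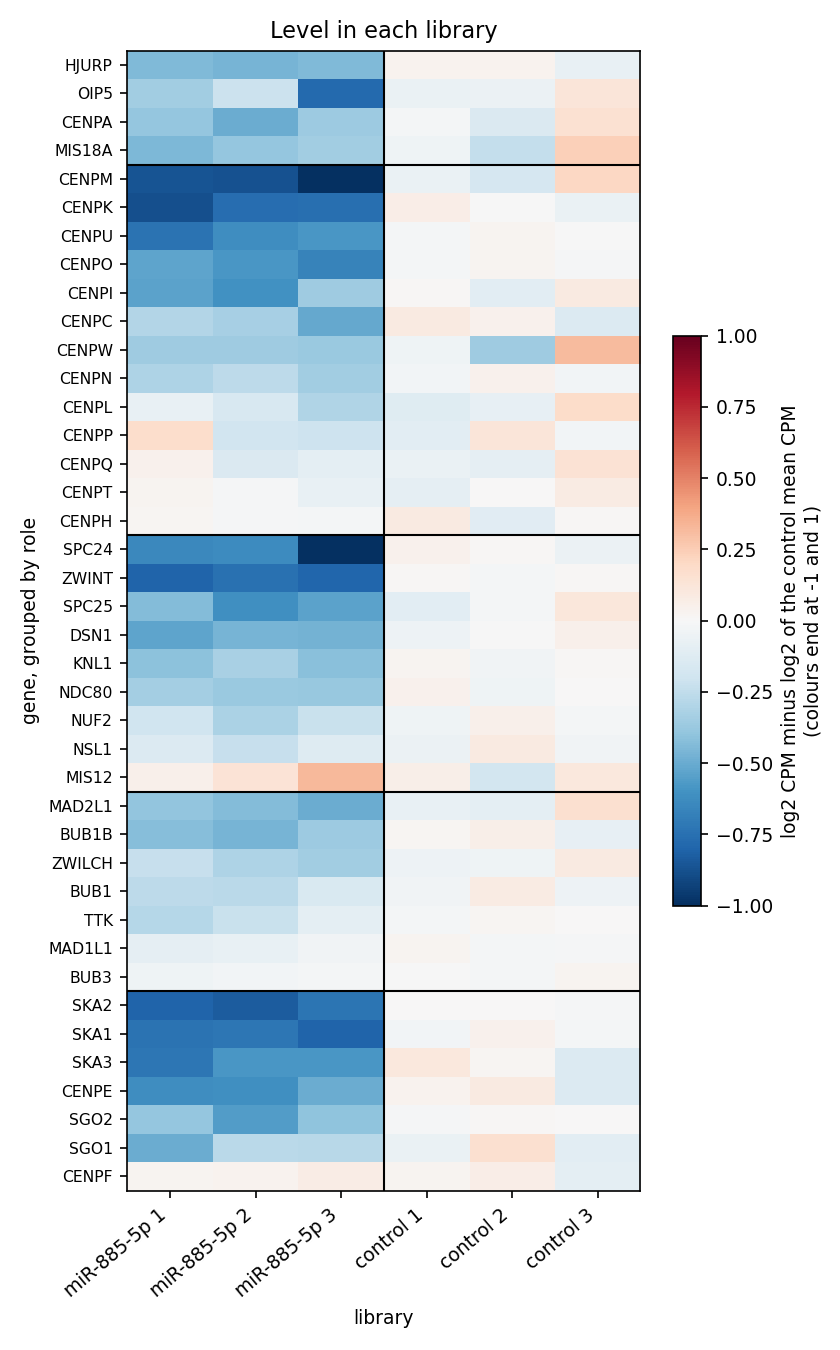
Level of each of the 40 genes (rows, by role) in each of the 6 libraries (columns, miR-885-5p left of control) as log2 CPM minus log2 of the control mean CPM, blue for lower and red for higher. Every miR-885-5p library is blue for the SKA genes, ZWINT, CENPK and CENPM, while the rows of CENPH, CENPT, BUB3 and CENPF are pale throughout.

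In the outer kinetochore 8 of 9 genes fell and MIS12 did not pass the test. ZWINT, which links KNL1 to the RZZ complex, is the most abundant of the 40 genes per length, at 75.8 FPKM in control. It had 87.2, 90.7 and 87.6 CPM with miR-885-5p, against 153, 149 and 153 CPM in control (log2 fold change -0.78, SE 0.04, adjusted p = 2.50e-07). Its partner KNL1, the scaffold on which the BUB kinases dock, fell by 0.38 (SE 0.06). From FPKM, with 1 added before taking log2, the value of KNL1 was -0.21, at means of 2.25 with miR-885-5p and 2.75 in control. The log2 ratio of KNL1 to ZWINT was -2.02 ± 0.02 with miR-885-5p and -2.41 ± 0.02 in control, a difference of 0.39 with no overlap (exact permutation p = 0.1, 0.2 adjusted over 18 pairs). All 4 subunits of the Ndc80 complex, the microtubule coupler, fell: SPC25 by 0.53 (SE 0.08), NDC80 by 0.36 (SE 0.04), NUF2 by 0.25 (SE 0.05) and SPC24 by 0.95 (SE 0.25).

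The size of the SPC24 change rests on 1 library. SPC24 had 23.0, 23.2 and 9.79 CPM with miR-885-5p, against 37.1, 36.2 and 34.4 CPM in control (adjusted p = 0.00984). Its raw count was 512 in miR-885-5p library 3, against 1082 and 1336 in the other 2 miR-885-5p libraries. The authors' FPKM shows no such drop: it was 11.1, 9.93 and 12.6 with miR-885-5p, against 14.7, 16 and 16.8 FPKM in control. In that library the FPKM of SPC24 per CPM was 2.75 times its median over the 6 libraries, and SPC24 was the only 1 of the 40 genes whose ratio strayed by over 1.5-fold in any library (1.28% of the 13077 genes with at least 50 counts in every library did so). Without miR-885-5p library 3 the log2 fold change of SPC24 was -0.64 (adjusted p = 0.000107), and from FPKM, with 1 added before taking log2, it was -0.47 (limma, SE 0.09, adjusted p = 0.00412). The source of the low SPC24 count was not tested.

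**Figure D4:**
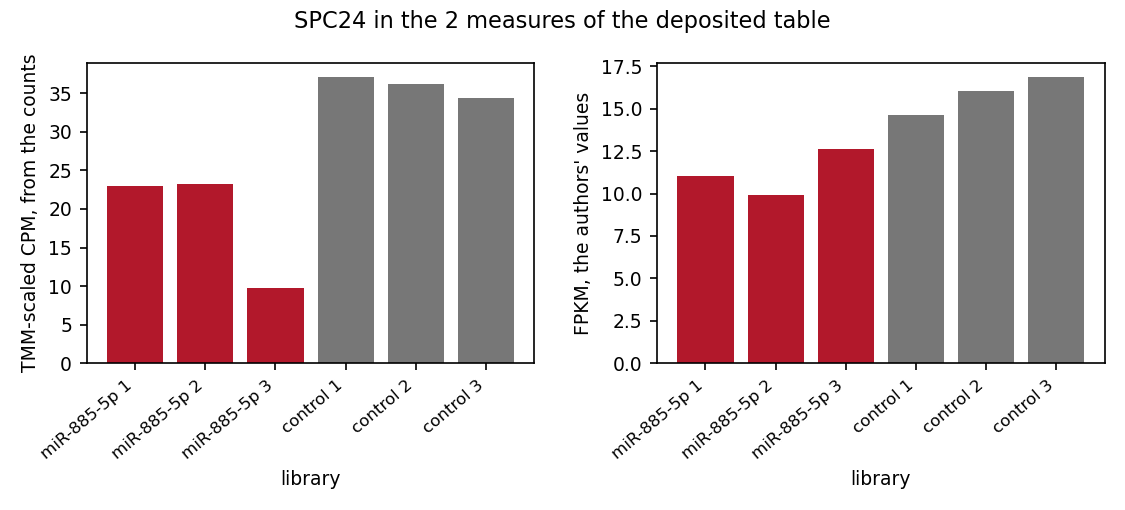
SPC24 in each library as TMM-scaled CPM computed from the deposited counts (left) and as the FPKM deposited by the authors (right), with miR-885-5p libraries in red and control libraries in grey. The CPM of miR-885-5p library 3 is 9.79, below the other 5 libraries, while its FPKM of 12.6 is the highest of the 3 miR-885-5p libraries.

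The Mis12 complex, which joins the inner and outer kinetochore, changed unevenly. DSN1 had a mean of 43.4 ± 1.03 CPM with miR-885-5p and 60.9 ± 2.15 CPM in control (SD, n = 3 each; log2 fold change -0.49, SE 0.05, adjusted p = 2.59e-05). NSL1 fell by only 0.16 (SE 0.06, adjusted p = 0.0440), and besides the 1.5-fold test this call was lost under 9 alternatives, among them total-count scaling, the replicate block and 5 of the 6 fits that leave out 1 library. MIS12 had 16.1, 17.1 and 19.4 CPM with miR-885-5p, against 16.2, 13.7 and 16.7 CPM in control (log2 fold change 0.17, SE 0.10, adjusted p = 0.163), the most positive value of the 40. Its groups overlapped, and with 1 library left out it lay between 0.09 and 0.24. The log2 ratio of NSL1 to DSN1 was higher by 0.33 with miR-885-5p (exact permutation p = 0.1, 0.2 adjusted over 18 pairs).

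Of 7 spindle checkpoint genes 5 fell and 2 did not pass. MAD2L1, which encodes the inhibitor of CDC20 that unattached kinetochores produce, had 52.3, 51.0 and 48.8 CPM with miR-885-5p, against 65.5, 64.5 and 76.9 CPM in control (log2 fold change -0.44, SE 0.07, adjusted p = 0.000480). BUB1B, whose product BUBR1 holds CDC20 together with MAD2, had 101, 98.3 and 105 CPM with miR-885-5p, against 138, 141 and 129 CPM in control (log2 fold change -0.42, SE 0.05, adjusted p = 5.22e-05). Neither gene overlapped between the groups. ZWILCH, a subunit of the RZZ complex that brings MAD1 to kinetochores, fell by 0.29 (SE 0.05; -0.18 from FPKM, adjusted p = 0.0630); its exons overlap those of LCTL and RPL4. The checkpoint kinase genes BUB1 and TTK fell by 0.23 (SE 0.05) and 0.20 (SE 0.06), and TTK lost its call without miR-885-5p library 1 (adjusted p = 0.0572).

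BUB3 and MAD1L1, the partners of BUB1B and MAD2L1, had values close to 0. BUB3, which carries BUB1 and BUBR1 to KNL1, had 168, 170 and 171 CPM with miR-885-5p, against 173, 171 and 177 CPM in control (log2 fold change -0.03, SE 0.03, adjusted p = 0.465). MAD1L1, the receptor for MAD2 at kinetochores, had 51.5, 52.1 and 53.5 CPM with miR-885-5p, against 55.9, 54.0 and 54.4 CPM in control (log2 fold change -0.06, SE 0.04, adjusted p = 0.246). Both were lower in every miR-885-5p library than in any control library, by margins that did not pass the test; under total-count scaling the value of BUB3 was 0.02. From FPKM, however, BUB3 passed as lower (log2 fold change -0.16, adjusted p = 0.0293). The log2 ratio of BUB1B to BUB3 was lower by 0.39 and that of MAD1L1 to MAD2L1 higher by 0.37 with miR-885-5p, both without overlap (exact permutation p = 0.1 each, 0.2 adjusted over 18 pairs). That of BUB1 to BUB1B was higher by 0.19 (same p). In all, 9 of the 18 pairs had ranges that did not overlap, and the ninth was NDC80 to SPC24, whose difference of 0.69 was 0.29 without miR-885-5p library 3. The share of such pairs among other genes was not computed. Among single genes the groups did not overlap for 30.3% (lower with miR-885-5p) and 30.2% (higher). Whether these pairs separate more often than other pairs was therefore not tested.

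Among the genes of the corona, of centromeric cohesion and of the SKA complex, 6 of 7 fell. The 3 SKA genes, which encode the complex that keeps Ndc80 on a shrinking microtubule, were among the most changed of the 40. SKA2 had 53.6, 52.3 and 56.2 CPM with miR-885-5p, against 93.4, 93.4 and 92.5 CPM in control (log2 fold change -0.79, SE 0.04, adjusted p = 6.33e-07). SKA1 had 16.5, 16.7 and 15.8 CPM with miR-885-5p, against 27.0, 28.4 and 27.2 CPM in control (log2 fold change -0.75, SE 0.06, adjusted p = 6.51e-06). SKA3 fell by 0.62 (SE 0.08). Between the subunits, the log2 ratios of SKA1 to SKA3 and SKA2 to SKA3 differed by -0.13 and -0.16, with overlapping ranges (exact permutation p = 0.2 each, which does not show that the proportions were kept). SGO2 and SGO1, the shugoshins that shield centromeric cohesin, fell by 0.45 (SE 0.06) and 0.34 (SE 0.09).

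CENPE and CENPF, 2 large proteins of the fibrous corona, parted. The kinesin gene CENPE, which moves chromosomes to the spindle equator, fell by 0.57 (SE 0.07, adjusted p = 7.27e-05), to 37.6 ± 1.80 CPM with miR-885-5p against 56 ± 4.44 CPM in control (SD, n = 3 each). CENPF, a large coiled-coil protein and a common marker of G2 cells, had 341, 344 and 353 CPM with miR-885-5p, against 341, 352 and 313 CPM in control (log2 fold change 0.05, SE 0.05, adjusted p = 0.436). Its groups overlapped, and the value turned to -0.00 without control library 3. CENPF, NUF2, NSL1 and CENPL are the 4 genes on chromosome 1, all on its long arm, with values from -0.25 to 0.05. The 40 genes lie on 19 chromosomes, and the others were not compared in this way, so a pattern by chromosome was not tested.

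In the lists that follow, the shares over all genes are again 26.5% lower and 26.3% higher. Of 24 other kinetochore and centromere genes 13 fell and none rose (median log2 fold change -0.22). SPDL1, which encodes the dynein adaptor spindly that the RZZ complex recruits, fell most among these, with 31.2, 34.0 and 32.9 CPM with miR-885-5p against 66.7, 65.7 and 61.1 CPM in control (log2 fold change -0.98, SE 0.06, adjusted p = 8.32e-07). The cohesion factor sororin (CDCA5) fell by 0.68 (SE 0.04), and the other RZZ subunits KNTC1 and ZW10 by 0.47 and 0.37. TRIP13, the ATPase that recycles MAD2, fell by 0.51, while MAD2L1BP, its adaptor, had a value of -0.10 (adjusted p = 0.335). CENPS and CENPX, partners of CENPT and CENPW, fell by 0.45 and 0.40, and ITGB3BP, the fifth subunit of the CENP-O group, fell by 0.46. PMF1, the fourth subunit of the Mis12 complex, had a value of 0.05 (adjusted p = 0.675).

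Of 8 cohesin genes 4 fell and none rose (median -0.15), with the ring subunits SMC1A at -0.48 (SE 0.04) and SMC3 at -0.29 (SE 0.05), and STAG2, which binds the ring, at -0.28 (SE 0.04). RAD21, also a ring subunit, did not pass the test (-0.06, SE 0.03, adjusted p = 0.149). Among 12 regulators of G2/M transcription 6 fell and 2 rose (median -0.19). MYBL2, which encodes the B-MYB activator that replaces DREAM at CHR promoters, had 36.9, 36.9 and 37.0 CPM with miR-885-5p, against 97.6, 103 and 91.9 CPM in control (log2 fold change -1.40, SE 0.05, adjusted p = 8.28e-08). RBBP4, a subunit of the MuvB core, fell by 0.52, and FOXM1, the later activator of the same genes, by 0.39. The 2 that rose were E2F5 and RBL2, the p130 pocket protein of DREAM, at 0.65 (SE 0.06) and 0.51 (SE 0.06). RBL1, the other pocket protein in the list, fell by 0.49, and LIN9 and TFDP1 fell by 0.25 and 0.22. LIN54, LIN37, LIN52 and E2F4 did not pass the test, with values of -0.17, 0.11, 0.01 and 0.09. Of 8 phosphatase genes whose products act at kinetochores 2 fell (25%, close to the share over all genes) and 4 rose (50%; median 0.17): PPP2R5A, PPP2R5B, PPP2R5C and PPP1CB rose by 0.33, 0.50, 0.23 and 0.26. PPP2R5D and PPP1CA fell by 0.34 and 0.30. Over these 4 lists 25 of 52 genes fell and 6 rose, and under total-count scaling 24 fell and 11 rose, where 22.3% of all genes were lower and 31.0% higher.

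**Figure D5:**
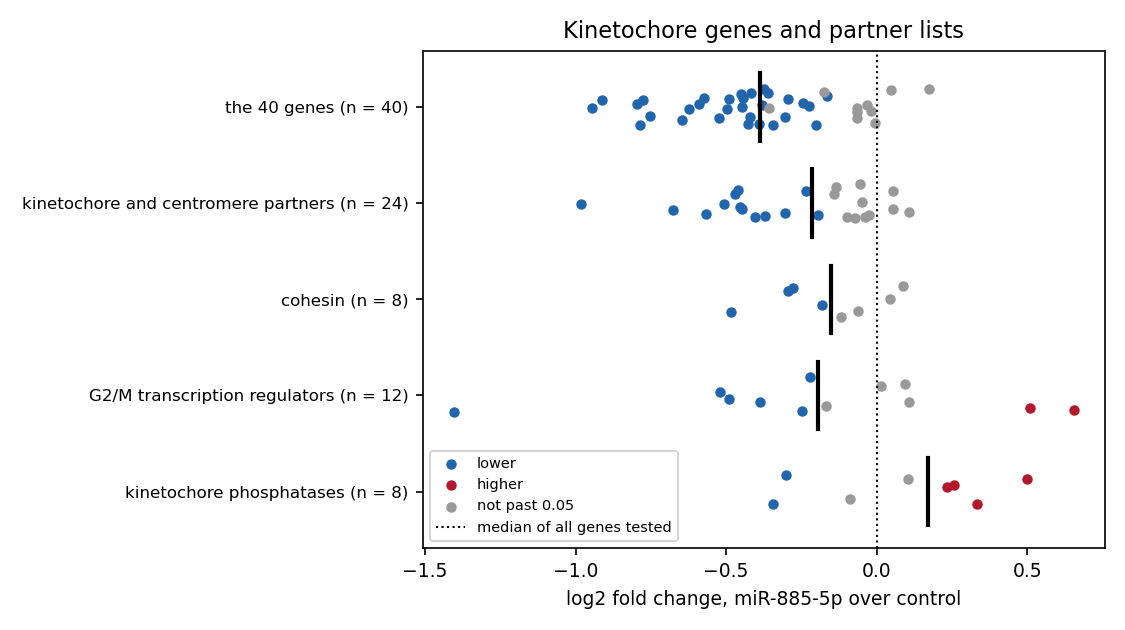
Log2 fold change (x axis, miR-885-5p over control) of the 40 genes and of the 4 lists of partner genes (rows); each point is a gene, blue if called lower, red if called higher and grey if not past an adjusted p of 0.05. Black bars are medians (-0.39 for the 40 genes, -0.22, -0.15, -0.19 and 0.17 for the lists from top to bottom) and the dotted line is the median of all 14034 genes.

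Across the 40 genes the size of change followed neither the counts nor the level per length in control (Spearman's rho with log2 fold change -0.12 for CPM and -0.14 for FPKM, n = 40 genes that share the same libraries, given as a description). The spread within groups had a median of 0.07 on the log2 scale and ran from 0.02 for BUB3 to 0.51 for SPC24. Control library 3 was the highest control for 16 of the 40 genes, against 36.5% of all genes. Exons of 17 of the 40 genes overlap those of another gene, in 15 of them on the opposite strand, and 7 have pseudogenes named after them, so reads shared with those loci may be in their counts.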

How the data were processed

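Messenger RNA of 6 JHH-4 libraries was analysed, 3 with miR-885-5p and 3 control, grouped by sample title. GRCh38 is the build in the submitters' processing notes, which list StringTie 2.2.1, DESeq2 1.38.3 and HISAT2 2.0.4 without saying what each did; no source used here names the counting tool. For each gene and library the deposited table gives, per the file headers, a raw count and an FPKM value, beside the authors' own p-value and log2 fold change.

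Tests on the counts used edgeR 4.0.16 under R 4.3.3 (TMM scaling, filterByExpr, quasi-likelihood F test, Benjamini-Hochberg over 14034 genes). An SE is the log2 fold change divided by the root of F. Alternatives were DESeq2 1.42.0, limma-voom (limma 3.58.1), 3 other scalings, other filters, the replicate block, a test against a 1.5-fold change and leaving out each library; limma on log2(FPKM + 1) was added after the data were seen. Fits were checked on simulated counts. Binomial intervals cover counting error only. Seed letters were searched in GENCODE 29 transcripts and motifs in RefSeq promoters (GRCh38.p14). The members and the lists were chosen with earlier results of these data known. By rule, each role's 2 largest falls, its most positive member and each member past no threshold get values in every library, and each partner list its 2 smallest adjusted p and all that rose; other genes were named after their values were seen.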

Additional observations from a re-analysis of the deposited data

How the results depend on the processing

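The number of the 40 genes called lower was 30, and 26 to 31 under every alternative other than the 1.5-fold test, with 0 higher in each. Leaving out 1 library gave 27 to 30. Using no filter or a filter at 1 CPM kept the same 14034 genes, so these alternatives could not change a call. Against a 1.5-fold change 5 of the 40 genes were lower, 2 partner genes lower and 0 higher, and 410 genes lower and 493 higher in the whole table. The median log2 fold change of -0.39 was -0.34 under total-count scaling, -0.33 from FPKM and between -0.42 and -0.36 with 1 library left out; total-count scaling also moved the median of all genes, to 0.05, and raised the number of partner genes higher to 11 from 6. From FPKM the median of all genes also moved, to 0.04. The 1 added to FPKM before taking log2 draws values at low FPKM toward 0 by construction. Other causes of these shifts were not tested. Of the 40 single calls 32 were the same under every alternative other than the 1.5-fold test; CENPC, CENPW, MIS18A, NSL1, OIP5, TTK, ZWILCH and BUB3 changed under at least 1. From FPKM, CENPC, MIS18A, OIP5, TTK and ZWILCH lost their call and BUB3 gained one. Same-numbered libraries did not deviate together (correlations of -0.18, -0.06 and -0.15), so the numbers do not pair them. No library correlated best with the library of its own number in the other group. With the replicate block 29 of the 40 genes were lower, and NSL1 lost its call (edgeR, adjusted p = 0.0982). CHR letters were in 54.5% of promoters, in 51.5% within the narrower window and in 42.4% for TTTGAA alone (18.2% of all promoters), and the count of seed sites was 0 with every UTR searched. Depth was not limiting at 383 or more counts per gene and library; with 3 libraries a group, ratio tests could not pass 0.10.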
